A study of Homo sapiens with 4 samples.

Results

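Chromosome 21 held 683 of the 33295 BrdU peaks in the deposited list, taken as every interval placed on chromosome 21 of the hg38 assembly. They merged into 451 sites, where overlapping or touching peaks were counted as 1 site. The study took BrdU-Seq data of an earlier experiment, in which BJ-hTERT cells, human foreskin fibroblasts immortalised with telomerase, were pulsed with BrdU while they passed through S phase after release from serum starvation. DNA that carried BrdU was sequenced (BrdU-Seq), and intervals enriched over Input DNA were called as BrdU peaks, which the study used as hotspots where replication forks slow or pause. The peaks of all timepoints stand in 1 list without a timepoint, a repeat, a height or a read count. The depth behind a peak is therefore unknown, no test between conditions could be made, and the identity of the cells could not be checked against markers. Intervals given below are exact 95% limits for counting error only. The series also holds RNAPII and PCNA ChIP-Seq samples at 14 h and 16 h, with 1 library each, which were not analysed here.

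Chromosome 21 is the shortest human autosome and 1 of 5 acrocentric chromosomes, with 13, 14, 15 and 22. The short arms of these chromosomes carry the tandem copies of the ribosomal RNA genes, from which the nucleolus forms, among long stretches of satellite DNA. Centromeres are built on alpha satellite, a repeat of about the length of the DNA on 1 nucleosome, and satellites II and III, built on a GGAAT unit, often lie beside it. In hg38 such sequence is only partly assembled, and reads from copies on other chromosomes can be placed on the copies that the assembly holds. Chromosome 21 has 4.28 Mb of known bases before its alpha-satellite block and chromosome 22 has 1.64 Mb, whereas chromosomes 13, 14 and 15 have 0 Mb.

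The sequences on which the description turns are shown first, all from the plus strand of hg38. The widest peak of chromosome 21 covered 3102 bp of the short arm (chr21:9246121-9249222), outside any annotated gene. In the stretch chr21:9248760-9248909 the capitals mark GGAAT or its reverse complement ATTCC.
widest peak: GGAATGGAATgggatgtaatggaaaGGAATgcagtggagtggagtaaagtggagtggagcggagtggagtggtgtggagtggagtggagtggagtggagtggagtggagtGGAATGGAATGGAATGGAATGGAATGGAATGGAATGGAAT

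A second kind of short-arm site stood beside the genes for 45S ribosomal RNA, the precursor of the large ribosomal RNAs. A site just upstream recurred in 4 ribosomal DNA copies, and the 4 sites shared a stretch of 435 bases without a mismatch. Its first 150 bases are given from chr21:8204109-8204258. Another recurrent site was an array of a 73-bp unit, of which 1 copy is in capitals (chr21:8203255-8203444). A site from the spacer after the gene is given with its longest perfect short repeat in capitals (chr21:8462043-8462192). The next line is the start of 1 of the 69 short-arm peaks that had all of their 50-base runs elsewhere in hg38, which lies in the same spacer site (chr21:8459751-8459900). The last line is from 1 of the 50 short-arm peaks that had none elsewhere, next to the alpha-satellite block (chr21:10737942-10738091), with 1 unit of 5 bp in capitals.
upstream site: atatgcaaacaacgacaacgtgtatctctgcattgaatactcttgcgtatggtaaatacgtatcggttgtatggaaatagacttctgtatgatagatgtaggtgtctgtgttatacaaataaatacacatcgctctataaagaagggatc
73-bp array: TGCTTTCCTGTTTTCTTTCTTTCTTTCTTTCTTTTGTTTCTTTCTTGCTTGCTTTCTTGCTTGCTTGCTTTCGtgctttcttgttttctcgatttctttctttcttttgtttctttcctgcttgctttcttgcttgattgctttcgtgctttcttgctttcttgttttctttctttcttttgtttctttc
spacer site: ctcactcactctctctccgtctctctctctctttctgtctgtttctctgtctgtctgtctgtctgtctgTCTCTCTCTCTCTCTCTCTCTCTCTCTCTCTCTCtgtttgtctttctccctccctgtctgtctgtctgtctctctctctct
most found elsewhere: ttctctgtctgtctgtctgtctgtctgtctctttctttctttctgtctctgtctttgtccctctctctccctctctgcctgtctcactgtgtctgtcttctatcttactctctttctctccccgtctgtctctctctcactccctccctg
least found elsewhere: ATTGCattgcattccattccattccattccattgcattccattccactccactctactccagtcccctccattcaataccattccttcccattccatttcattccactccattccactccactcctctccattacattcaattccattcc

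The 5 deepest sites of chromosome 21 all lay in introns of long-arm genes, and 2 of them were tandem arrays, in which at least 70% of bases equal the base 1 unit further on. Depth is the largest number of listed peaks that cover a single base of a site, and it reached 5 in each of them. The widest of the 5 (chr21:45923807-45925133, 1327 bp) lay in an intron of PCBP3, which encodes a poly(C)-binding RNA-binding protein, and repeated a 66-bp unit with 95.8% of bases equal to the base 1 unit further on. The second lay in an intron of ABCG1, a cholesterol exporter, and repeated a CACACTA-like unit of 7 bp. The other 3 had self-matches of 64.3%, 67.9% and 53.1%. The third lay in an intron of KCNJ6, a potassium channel gene, and also within the long non-coding RNA gene DSCR4. The fourth lay in an intron of DOP1B and the fifth in an intron of RUNX1, which encodes a transcription factor of blood formation. Capitals mark 1 unit in the PCBP3 (chr21:45924444-45924643) and ABCG1 (chr21:42293554-42293703) sites. In the KCNJ6 (chr21:38057443-38057592) and DOP1B (chr21:36257597-36257746) sites they mark the longest perfect repeat of at least 12 bases, counted in whole units. Of equally long repeats the first is marked. The RUNX1 stretch (chr21:34843113-34843262) held none of that length.
PCBP3 site: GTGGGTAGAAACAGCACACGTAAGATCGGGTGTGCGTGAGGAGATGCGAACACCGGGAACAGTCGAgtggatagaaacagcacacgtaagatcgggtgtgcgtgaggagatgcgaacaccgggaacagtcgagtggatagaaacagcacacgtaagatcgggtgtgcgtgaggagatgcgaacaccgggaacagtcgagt
ABCG1 site: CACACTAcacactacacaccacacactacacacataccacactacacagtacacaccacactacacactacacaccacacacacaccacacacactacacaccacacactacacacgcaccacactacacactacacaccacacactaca
KCNJ6 site: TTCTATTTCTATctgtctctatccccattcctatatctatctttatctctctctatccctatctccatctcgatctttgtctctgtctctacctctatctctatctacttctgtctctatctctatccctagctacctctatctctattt
DOP1B site: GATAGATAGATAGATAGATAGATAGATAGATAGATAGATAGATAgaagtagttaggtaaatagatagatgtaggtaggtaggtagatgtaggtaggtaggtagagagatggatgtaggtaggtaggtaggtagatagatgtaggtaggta
RUNX1 site: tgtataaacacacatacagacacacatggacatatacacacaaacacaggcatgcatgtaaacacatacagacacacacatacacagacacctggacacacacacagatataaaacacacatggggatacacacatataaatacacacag

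The clearest arrays in other classes of unit length were a 5-bp array of the short arm (chr21:5328337-5328486, self-match 82.3% over the site), a 47-bp array in an intron of FAM3B (chr21:41313456-41313605, 100%) and a 90-bp array in an intron of TRPM2 (chr21:44404735-44404959, 98.2%). Each of these 3 sites had depth 1. FAM3B encodes a cytokine-like secreted protein and TRPM2 a cation channel. Capitals mark the first unit.
5-bp array: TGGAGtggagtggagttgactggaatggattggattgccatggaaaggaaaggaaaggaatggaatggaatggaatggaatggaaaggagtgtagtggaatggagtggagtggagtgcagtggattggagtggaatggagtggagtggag
47-bp array: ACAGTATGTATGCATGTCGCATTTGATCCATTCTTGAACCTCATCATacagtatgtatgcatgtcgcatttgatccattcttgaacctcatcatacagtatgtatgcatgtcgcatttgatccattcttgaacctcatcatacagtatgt
90-bp array: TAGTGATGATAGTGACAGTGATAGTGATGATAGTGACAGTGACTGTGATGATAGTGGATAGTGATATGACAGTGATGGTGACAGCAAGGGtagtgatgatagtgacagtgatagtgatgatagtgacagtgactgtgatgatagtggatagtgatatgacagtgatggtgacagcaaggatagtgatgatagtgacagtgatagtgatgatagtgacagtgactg

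Chromosome 21 had 17.0 peaks per Mb of known bases (95% limits 15.8 to 18.4), the highest value of the 22 autosomes. The median of the autosomes was 11.99 peaks per Mb. Chromosome 22 followed among the acrocentric chromosomes at 15.6, chromosome 15 had 14.5, chromosome 14 had 10.7 and chromosome 13 had 6.56 peaks per Mb. The value of chromosome 21 was 1.35 times the median of these 4. In merged sites chromosome 21 had 11.3 per Mb and ranked 6 of 22, close to 11.4 on chromosome 22. With the long arms alone, chromosome 21 had 11.9 peaks per Mb (10.8 to 13.1), ranked 11, and stood at 0.925 times the median of the other 4 long arms. In merged sites its long arm had 7.90 per Mb and ranked 16, and the median of the autosomes was 9.49. Both long-arm ranks set the long arms of the acrocentric chromosomes beside the whole of the other autosomes. No test was made of these differences, since peaks of 1 list are not replicates.

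**Figure D1:**
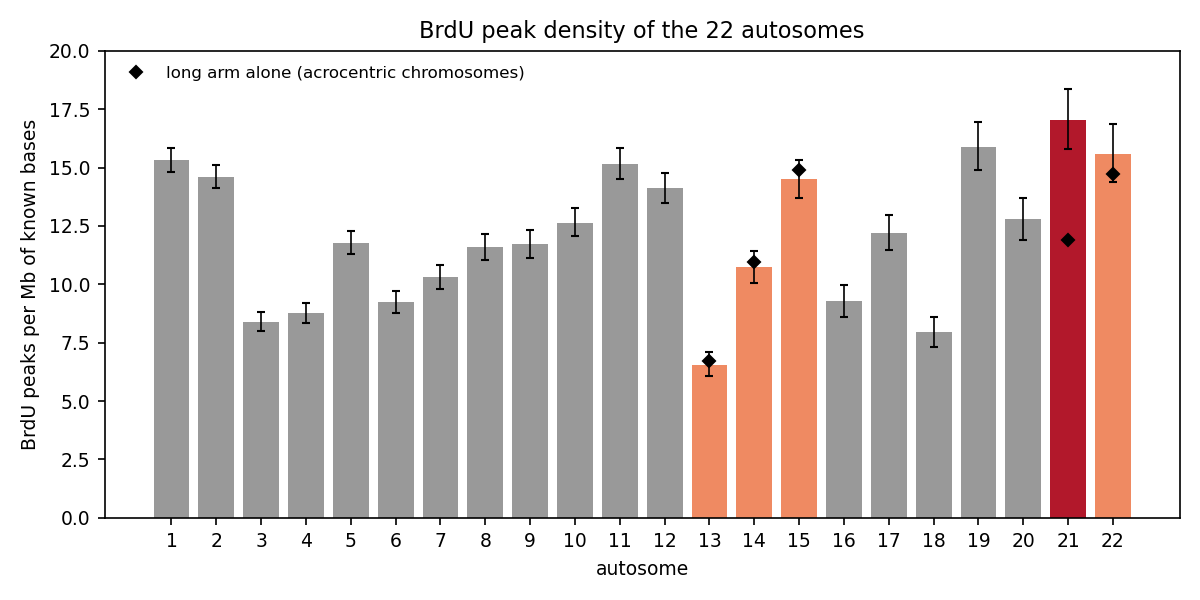
BrdU peaks per Mb of known bases on each of the 22 autosomes (bars, with exact 95% Poisson limits for counting error), with chromosome 21 in dark red and the other acrocentric chromosomes in orange. Black diamonds give the long arm alone; on chromosome 21 the bar stands at 17.0 and the diamond at 11.9 peaks per Mb.

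The short arm held 283 of the 683 peaks, or 41.4% (37.7 to 45.2%), on 10.7% of the known bases. The share was 19.8% without the pentamer-rich and ribosomal DNA sites described below, and 26.4% without peaks of which 50% or more of the 50-base runs occur elsewhere in hg38. Its density was 66.1 peaks per Mb (58.6 to 74.3), which was 5.56 times that of the long arm. On chromosome 22 the short arm held 86 of 610 peaks, or 14.1% (11.4 to 17.1%), at 52.3 peaks per Mb (41.8 to 64.6), 3.55 times its long arm. The limits of the 2 short-arm densities overlapped, on 4.28 and 1.64 Mb of known bases. The alpha-satellite block of chromosome 21 (chr21:10740001-13000000) held 0 peaks. The blocks of chromosomes 13, 14, 15 and 22 held 0, 2, 9 and 3 peaks.

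Peaks near the block lay on its short-arm side. Within 1 Mb of the block were 116 peaks, 17.0% (14.2 to 20.0%) of the chromosome, of which 115 were on the short-arm side and 1 on the long-arm side. On chromosome 22 the same reach held 47 peaks (7.70%), 23 on the short-arm side, 21 on the long-arm side and 3 inside. On chromosomes 13, 14 and 15, which have no short-arm sequence, it held 2, 22 and 12 peaks, or 0.311%, 2.27% and 0.977%.

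Along the chromosome, 5 of the 42 windows of 1 Mb with at least 500 kb of known bases held 370 peaks, 54.2% (50.4 to 58.0%). With windows of 2 Mb the densest 10% held 31.5%. The densest 10% of windows, rounded up, held 63.6% of peaks on chromosome 13 (10 of 98 windows), 51.4% on 14 (10 of 91), 60.9% on 15 (9 of 85) and 31.3% on 22 (4 of 40). Rounding up makes the fraction of windows taken differ between chromosomes and window sizes, and it was larger for the 1 Mb windows of chromosome 21. The fullest window of chromosome 21, with 97 peaks, adjoined the alpha-satellite block on the short arm. The next held 91 peaks near the end of the long arm (chr21:45000001-46000000), and the third held 82 peaks and the ribosomal RNA genes (chr21:8000001-9000000). A window at 35 to 36 Mb (chr21:35000001-36000000), inside RUNX1, held 53 peaks, and the short-arm window at 7 to 8 Mb (chr21:7000001-8000000) held 47.

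The long arm was almost empty next to the centromere and filled towards the telomere. The 11.2 Mb nearest the centromere had 11 peaks, 0.979 per Mb (0.489 to 1.75). The middle 11.2 Mb had 127 peaks, 11.3 per Mb (9.42 to 13.4), and the 11.2 Mb nearest the telomere had 262 peaks, 23.4 per Mb (20.7 to 26.5). The limits of the 3 segments did not overlap. The same division gave another order on chromosome 13, at 10.8, 1.81 and 7.56 peaks per Mb. Chromosomes 14 (7.12, 17.8 and 7.88) and 15 (9.95, 26.2 and 8.49) were highest in the middle, and chromosome 22 rose less, at 11.9, 15.4 and 16.8. The last 2 Mb of chromosome 21 held 115 peaks, 57.5 per Mb (47.5 to 69.0), against 59.5 on chromosome 13, 18.5 on 14, 15.0 on 15 and 20.0 on 22. Across the 34 long-arm windows the peak count and the GC content had a Spearman rho of 0.635, a description only, since neighbouring windows share their composition and genes. The widest stretch without a site was 2.84 Mb (chr21:18836849-21681192).

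**Figure D2:**
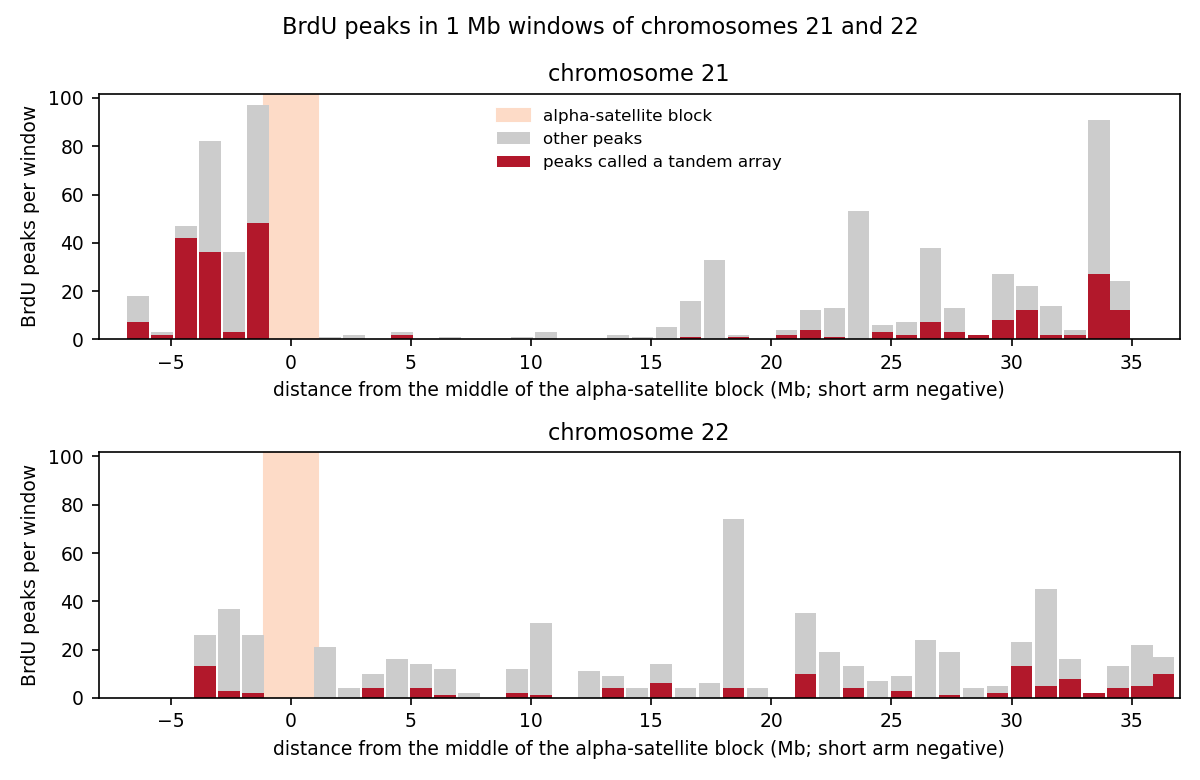
BrdU peaks in each 1 Mb window of chromosomes 21 (top) and 22 (bottom), by distance from the middle of the alpha-satellite block (shaded), with the short arm at negative distances. Red parts of the bars are peaks called a tandem array and grey parts are the others; on chromosome 21 the fullest windows hold 97 peaks beside the block and 91 near the end of the long arm.

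The 185 merged sites of the short arm fell into 3 groups. Sites rich in the GGAAT pentamer numbered 81 and held 114 of the 283 short-arm peaks (40.3%). Sites within 30 kb of a 45S ribosomal RNA gene or the related pseudogene RNA18SP5 numbered 26 and held 71 peaks (25.1%). The other 78 sites held 98 peaks (34.6%). The limit for the first group, 20% of a site's bases in GGAAT or ATTCC, was set after the values were seen. Its members ranged from 23.7 to 61.4% with a median of 34.0%, and the highest short-arm site below the limit had 6.32%. Of all 25634 merged sites, 1.50% passed it.

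The pentamer-rich sites stood in 5 clusters. The largest held 45 sites and 57 peaks in 79.1 kb that ran up to the alpha-satellite block (chr21:10659488-10738562). A second held 28 sites and 40 peaks in 42.0 kb (chr21:7915842-7957888). The widest peak, with 5 narrower peaks inside it, made up the next (chr21:9246121-9249222). The last 2 held 4 sites (chr21:5327347-5329908) and 3 sites (chr21:7257436-7261523). Arrays made up 69 of the 81 sites, an array being a site in which at least 70% of bases equal the base a fixed offset of up to 120 bp further on, and the offset was a multiple of 5 bp in all 69. Depth reached 3, and 20 sites (24.7%, 15.8 to 35.5%) had a depth of 2 or more.

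Pentamer-rich sites were unevenly spread over the chromosomes. Chromosome Y had 155, chromosome 21 had 82, chromosome 10 had 36, chromosome 20 had 27, chromosome 17 had 26 and chromosome 22 had 13. Per 100 kb of assembled sequence that passed the same limit in 1 kb bins, chromosome 21 had 58.6 sites on 140 kb, and Y had 24.2 on 640 kb. Chromosomes 20, 22, 17 and 10 had 18.0, 12.6, 10.7 and 9.86 sites per 100 kb, and chromosomes 1 and 16 had 3.42 each. The short arm of chromosome 22 was the denser of the 2 short arms, with 11 sites on 13 kb of such sequence. That of chromosome 21 had 81 sites on 139 kb. Over whole chromosomes, higher values than on chromosome 21 came from 3 sites on 2 kb of such sequence on chromosome 19 and 3 sites on 3 kb each on 6 and 15. Chromosomes 12, X and 14 had 1 or 2 sites on 2, 3 and 9 kb. Chromosome 9 had 36 kb of such sequence and 0 sites. Although built on 1 unit, most sites had few exact copies in the assembly. A median of 1.85% of their 50-mers (all runs of 50 bases, on both strands) occurred elsewhere in it, and 30 of the 81 sites had none. Copies with a mismatch and copies missing from the assembly were not counted, so whether reads could be placed uniquely was not tested. In the cluster beside the block the median was 0%, whereas in the 4 sites at the far end of the short arm it was 91.6%.

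The 26 sites by the ribosomal RNA genes lay outside the genes themselves. RefSeq places RNA45SN2 (chr21:8205988-8219302), RNA45SN3 (chr21:8389035-8402343) and RNA45SN1 (chr21:8433222-8446572) here, and 0 of the 26 sites overlapped them or RNA18SP5. The microRNA gene MIR6724 has a copy just before each 45S gene, with another before RNA18SP5, and served as a common origin for the 4 copies. A site began 1.22, 1.21, 1.21 and 1.23 kb before MIR6724-1, MIR6724-2, MIR6724-3 and MIR6724-4, with depths of 4, 4, 3 and 4. The 73-bp array began 2.14, 2.06 and 2.03 kb before MIR6724-1, MIR6724-3 and MIR6724-4, with depths of 3, 2 and 1.

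After the genes, sites recurred at the same distances. A site began 17.7, 17.7 and 17.6 kb after the start of MIR6724-1, MIR6724-3 and MIR6724-4, each 208 to 284 bp wide with a depth of 1 or 2. Broad sites began 22.8 kb after each of these 3 copies, with widths of 2618, 1108 and 2528 bp and depths of 3, 1 and 3. Further broad sites began 27.3, 26.8 and 27.2 kb after the copies, with depths of 2, 4 and 4, and the last began 31.8, 31.2 and 31.6 kb after them, with depths of 3, 3 and 4. In the spacer sites from 22.8 kb on, the smallest offset within 2 percentage points of the best self-match was 4 bp. In all but 1 of them the longest perfect short repeat was of TC or CT. A few sites had no counterpart, such as that 14.4 kb after MIR6724-1 with a depth of 3. Known sequence after MIR6724-2 ends at 11.5 kb, so spacer sites could not be seen in this copy, and it had no site at the place of the 73-bp array.

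**Figure D3:**
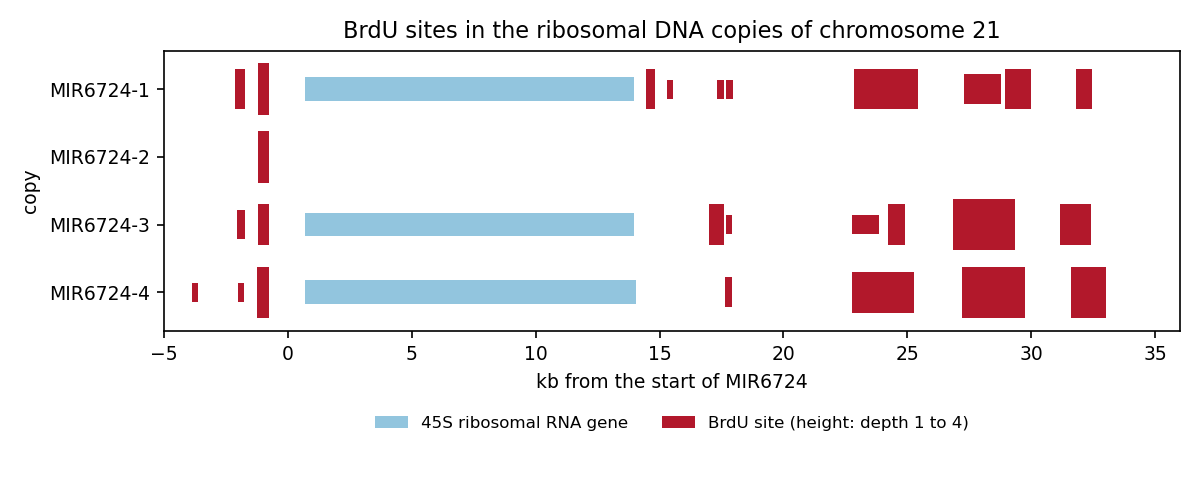
BrdU sites (red, taller for greater depth, drawn at least 250 bp wide) in the 4 ribosomal DNA copies of chromosome 21, in kb from the start of the copy of MIR6724 that names each row, with the 45S ribosomal RNA genes in blue. Sites stand about 1.2 kb before MIR6724 in all 4 copies and from 22.8 kb after it in the 3 copies assembled that far, and none overlaps a 45S gene.

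Depth was high in this group, as 19 of the 26 sites (73.1%, 52.2 to 88.4%) had a depth of 2 or more and 16 had a depth of 3 or 4, against 14 of the 78 other short-arm sites (17.9%, 10.2 to 28.3%). In 25 of the 26 sites, 50% or more of the 50-mers occurred elsewhere. In 25 sites they occurred on scaffolds outside the placed chromosome sequences, whether or not assigned to a chromosome. The median 50-mer of a site had 5 copies in the assembly. RefSeq lists 2 further 45S genes, RNA45SN4 and RNA45SN5, neither in the placed chromosome sequences: RNA45SN4 is assigned to chromosome 22 and RNA45SN5 to none. No reads were examined here, so reads from ribosomal DNA on chromosomes 13, 14, 15 and 22 could not be told apart from reads of chromosome 21. The part that read placement among copies has in the recurrence and the depth was not tested.

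The other 78 short-arm sites had a median GC content of 37.2%, and 3 of them were arrays. Most lay between the site at chr21:8697618-8697920 and the largest pentamer cluster, and 20 fell in 1 cluster of 149 kb (chr21:10326649-10475447). In 43 of them (55.1%, 43.4 to 66.4%) 50% or more of the 50-mers occurred elsewhere. At that level the copies lay in the placed sequence of chromosome 22 for 16 sites, of chromosome 4 for 7 and of chromosome 9 for 6. For 17 sites they lay on scaffolds outside the placed chromosome sequences, some of which may be assigned to a chromosome. On chromosome 22, 35 of 52 such short-arm sites (67.3%) had copies elsewhere. On the long arm of chromosome 21 this held for 10 of all 266 sites (3.76%, 1.82 to 6.80%), and 200 sites had no 50-mer elsewhere. Over all chromosomes 5.76% of merged sites had copies at this level. On chromosome 21 the share was 19.1% of merged sites and 22.4% of peaks.

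**Figure D4:**
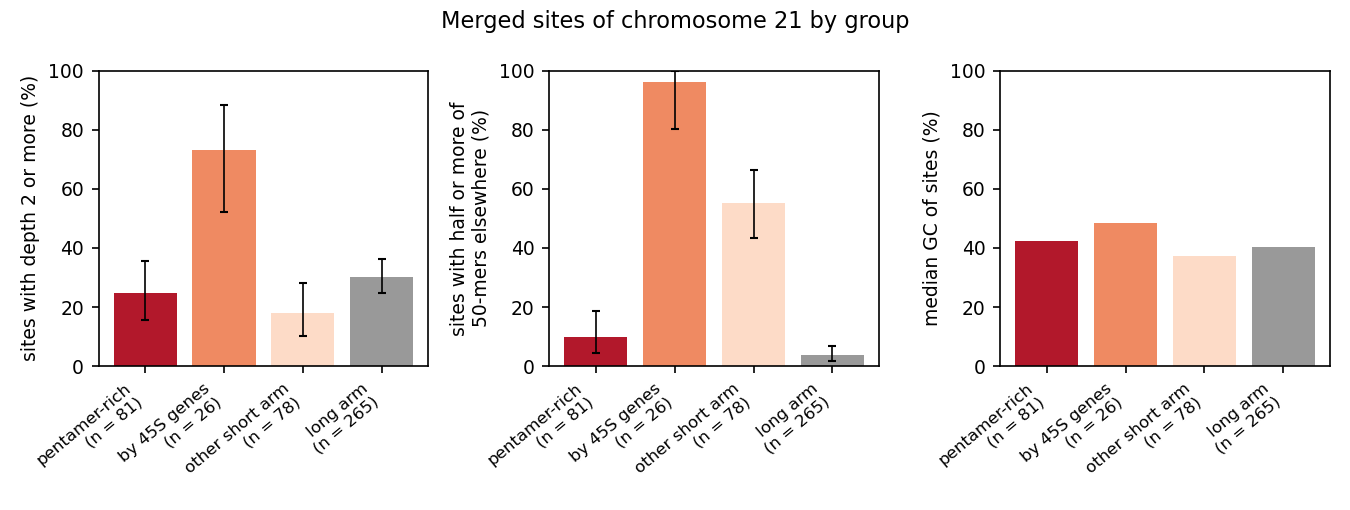
Merged sites of chromosome 21 in the 3 short-arm groups and on the long arm (1 pentamer-rich long-arm site left out), as the share with a depth of 2 or more, the share with 50% or more of the 50-mers elsewhere in hg38, and the median GC content; error bars on the shares are exact 95% limits for counting error. Sites by the 45S genes stand highest in each panel, at 73.1%, 96.2% and 48.4%.

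Tandem arrays made up 33.5% of the peaks of chromosome 21 (30.0 to 37.2%), the highest share of the autosomes at this limit. At limits of 60% and 80% self-match the share was 49.8% and 10.1%, and chromosome 21 ranked 2 after chromosome 16. Chromosome 22 had 18.2%, 13 had 11.8%, 14 had 6.80% and 15 had 3.09%. Both arms contributed. Among merged sites 84 of 185 (45.4%, 38.1 to 52.9%) on the short arm and 43 of 266 (16.2%, 11.95 to 21.2%) on the long arm were arrays, against 47 of 380 (12.4%) on the long arm of chromosome 22, 34 of 474 (7.17%) on 13, 27 of 793 (3.405%) on 14 and 15 of 1020 (1.47%) on 15. The unit was taken as the smallest offset within 2 percentage points of the best self-match, and its median was 10 bp on the short arm and 47 bp on the long arm. It can be a multiple of a shorter repeat, as the pentamer-rich arrays had a median of 15 bp. On the long arm 2 arrays had units of up to 6 bp, 14 of 7 to 30 bp, 12 of 31 to 60 bp and 15 of 61 to 120 bp. Most thus fell in the range of minisatellites, but multiples of shorter units were not told apart. Of these 43 arrays, 35 lay in the 11.2 Mb nearest the telomere, which held 153 of all 266 long-arm sites (57.5%). The last of 3 equal parts of the long arm held 27 of 34 arrays on chromosome 13, 22 of 27 on 14, 7 of 15 on 15 and 29 of 47 on 22.

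Peaks of chromosome 21 were stacked more often than in the list as a whole. Of the 683 peaks, 366 (53.6%, 49.8 to 57.4%) shared at least 1 bp with a neighbour, against 39.1% of all peaks, and the share was alike on the short (53.4%) and the long arm (53.8%). On the long arms of chromosomes 13, 14, 15 and 22 it was 42.9%, 31.99%, 29.9% and 45.7%. Depth on the long arm of chromosome 21 was 1 in 185 sites, 2 in 53, 3 in 20, 4 in 3 and 5 in 5. The long arms of 13, 14, 15 and 22 had 2, 2, 1 and 1 sites of depth 5 among 474, 793, 1020 and 380. Sites with a depth of 2 or more made up 18 of 43 long-arm arrays (41.9%) and 63 of 223 other long-arm sites (28.3%). Peaks had a median width of 325 bp, against 280 bp in the whole list.

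Protein-coding genes (GENCODE 44) overlapped 37.8% of all 683 peaks, the lowest share of the autosomes (rank 22), made up of 252 of the 400 long-arm peaks (63.0%, 58.1 to 67.7%) and 6 of the 283 short-arm peaks (2.12%). The long arms of the other acrocentric chromosomes ranged from 48.1% on 13 to 64.2% on 15. The share also depends on how much of a chromosome lies in such genes. Per Mb of protein-coding gene sequence chromosome 21 had 18.7 peaks, against 17.0 per Mb over all its known bases. Chromosomes 13, 14, 15 and 22 had 9.32, 13.8, 18.0 and 16.4 per Mb of such sequence. An exon of a protein-coding gene was reached by 12 long-arm peaks (3.00%). Of the 220 protein-coding genes of chromosome 21, 48 (21.8%) held a site, close to 22.7% on 14 and 21.9% on 22. The sites were gathered in few genes, as 12 genes held 125 of the 170 sites in protein-coding genes (73.5%), against 39.1 to 52.6% for the leading 12 on the other 4 chromosomes. Chromosome 21 has the fewest such genes of the 5.

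RUNX1 (chr21:34787801-36004667, minus strand) held 52 sites and 65 peaks, 19.5% of the sites of the long arm. All but 1 of its sites lay in introns only, 1 was an array, and 10 had a depth of 2 or more. The annotated gene spans 1217 kb, since it includes a long 5' part. In 5 equal parts of 243 kb from its 5' end the sites numbered 4, 5, 8, 27 and 8. The 3' part held the depth-5 site shown above, and the other 4 parts reached a depth of 2. Of the 52 sites, 0 had 50% or more of their 50-mers elsewhere. The leading genes of the other acrocentric chromosomes were shorter and held more sites per length: LRRC49 on 15 had 57 sites (28.4 per 100 kb), SYN3 on 22 had 53 (9.63), FRMD6 on 14 had 40 (16.6) and KATNAL1 on 13 had 14 (13.3), against 4.27 per 100 kb in RUNX1. Sites with a depth of 2 or more made up 19.2% (9.63 to 32.5%) in RUNX1 and 10.0 to 22.8% in the other 4, with overlapping limits.

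Next by number on the other chromosomes came UBL3 and MYO16 on 13 with 10 sites each, RAD51B (31) and PRKCH (17) on 14, FBN1 (33) and AKAP13 (28) on 15, and MRTFA (16) and ATXN10 (14) on 22. On chromosome 21 RUNX1 was followed by BACH1, a transcription factor that represses haem oxygenase, with 15 sites on 437 kb, of which 7 also lay in the non-coding gene LINC00189, and 0 of them lay where its annotation overlaps GRIK1. PCBP3 held 10 sites, of which 6 were arrays and 5 had a depth of 2 or more. ADARB1, which edits adenosine in RNA, held 8 sites without an array, and 1 had a depth of 2.

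The remaining leading genes held 3 to 7 sites. LTN1, a ubiquitin ligase of stalled ribosomes, held 7 sites, all of depth 1. TPTE, a phosphatase-like gene of testis on the short arm, held 6, all of depth 1. MAP3K7CL held 6, also all of depth 1. COL18A1, the gene for collagen XVIII, held 6 sites with a depth of up to 3, and ERG, an ETS-family transcription factor, held 6 with a depth of up to 3. KCNJ6 held 4 sites on 514 kb with 12 peaks, as 3 of the 4 had a depth of 3 or 5. POFUT2, which adds fucose to thrombospondin repeats, held 3 sites, and so did SLC19A1, the reduced folate carrier. Per length, among protein-coding genes of at least 20 kb with at least 3 sites, POFUT2 had 12.5 sites per 100 kb, LTN1 10.8, TPTE 7.09, MAP3K7CL 6.08 and COL18A1 5.53.

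**Figure D5:**
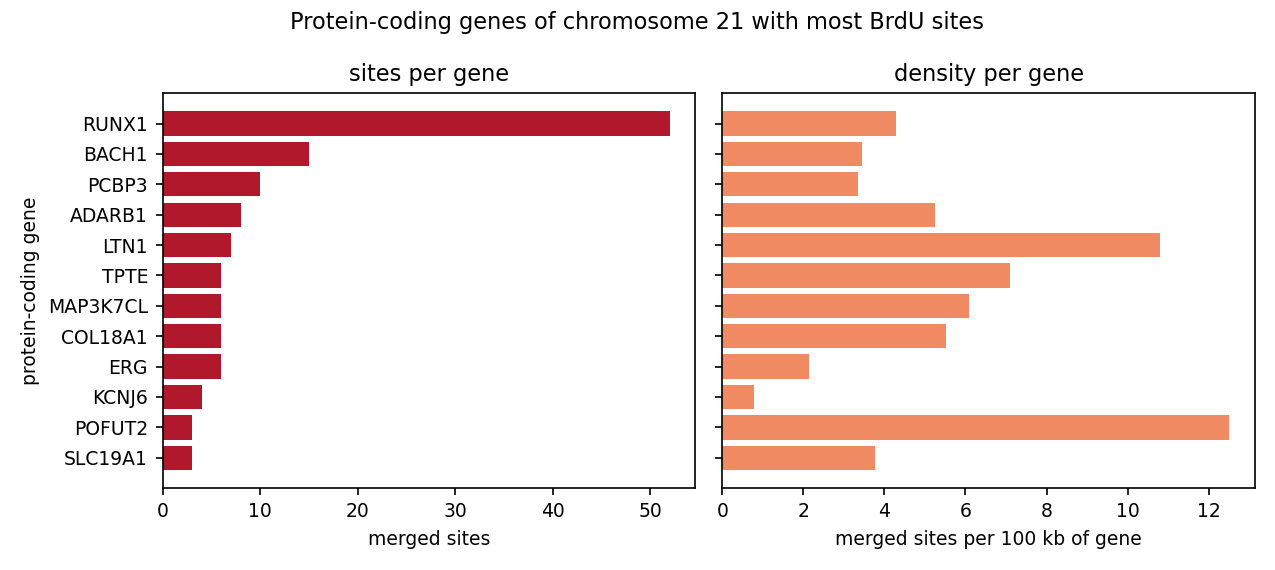
The 12 protein-coding genes of chromosome 21 with the most merged BrdU sites, as sites per gene (left) and sites per 100 kb of annotated gene (right). RUNX1 leads by number with 52 sites and POFUT2 by density with 12.5 sites per 100 kb.

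The window with 91 peaks near the end of the long arm held 53 sites, of which 30 lay in protein-coding genes and 23 between them. PCBP3 held 10 of them, ADARB1 8, COL18A1 6, POFUT2 and SLC19A1 3 each and COL6A1 1, with 1 site shared by COL18A1 and SLC19A1. In this window 10 sites were arrays, 8 of them in protein-coding genes, and 22 sites had a depth of 2 or more. The 10 sites of PCBP3 carried 24 peaks and had self-matches from 35.1 to 95.8%.

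Among genes of other types, the lncRNA gene ENSG00000280441 by the ribosomal RNA genes held 12 sites and 28 peaks, 16.2 per 100 kb. ENSG00000205622, a long-arm lncRNA gene, held 8. LINC00189, the lncRNA gene ENSG00000290523 and the pseudogene ENSG00000270533 held 7 each, the latter 2 on the short arm.

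By gene group, members with a site are to be read against 48 of 220 (21.8%) of all protein-coding genes of the chromosome. The 10 transcription factors held 73 sites, all in RUNX1, BACH1 and ERG, and 0 in ETS2, which is expressed widely, and 6 others. The collagens, the extracellular matrix genes of the distal arm, held sites in all 3 members, with 6 in COL18A1, 2 in COL6A2 and 1 in COL6A1, or 5.40 per 100 kb against 1.19 over all protein-coding genes of the chromosome. COL18A1 and most of COL6A1 lie in the 1 Mb window with 91 peaks, which held 53 sites, a density close to that of the collagens. The 5 long genes of neurons held 5 sites, 4 in KCNJ6 and 1 in DSCAM, a cell adhesion gene of 836 kb, or 0.193 per 100 kb, and 0 in APP, NCAM2 and GRIK1. Of the 6 ion channel genes KCNJ6 held 4 sites, KCNJ15 2 and TRPM2 1. In the Down syndrome region 3 of 11 genes held 4 sites, 2 in DSCR4, which are also sites of KCNJ6, and 1 each in TTC3 and CLDN14, and the kinase gene DYRK1A held 0. Of the 8 chromatin, replication and centrosome genes PCNT, for pericentrin, held 2 sites and the other 7 held 0. Of the 4 interferon and IL-10 receptor genes IFNAR1 held 1 site, with a depth of 2. Next to the centromere TPTE held 6 sites and the pseudogene BAGE2 5, and the others, such as LIPI and SAMSN1, held 0. The 49 keratin-associated protein genes, which cover 34.4 kb, and the 7 trefoil, protease and antiviral genes, such as TMPRSS2 and MX1, held 0.

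Genes over 200 kb were less often empty than protein-coding genes as a whole, of which 48 of 220 (21.8%) held a site. Several of the longest genes were empty all the same. Of the 17 protein-coding genes over 200 kb, 7 held 0 sites: NCAM2 (545 kb), TIAM1 (442 kb), GRIK1 (403 kb), CHODL (366 kb), APP (291 kb), HLCS (242 kb) and TMPRSS15 (217 kb). The other 4 chromosomes had 19 of 42, 18 of 39, 27 of 56 and 6 of 15 such genes without a site, on 13, 14, 15 and 22.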

How the data were processed

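Cells, from an earlier experiment, were BJ-hTERT fibroblasts released from serum starvation and pulsed with BrdU at several S-phase timepoints. The authors aligned BrdU-Seq reads to hg38 with Bowtie 2 and called peaks per timepoint against Input DNA with MACS2 (version 2.1.0 in the submitters' processing notes). The deposited list gives positions in bp, with as many rows as the study counts over its timepoints. Repeats were analysed together by the authors, and neither timepoint nor repeat is named per peak, so whether depth counts timepoints could not be checked. Interval starts were taken to be 0-based, and 1 was added for printing. On chromosome 21, 5 peaks included unknown bases.

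The alpha-satellite block was the longest run of 10 kb windows in which at least 40% of bases equal the base 171 bp further on, with gaps under 200 kb joined, and the arms lie before and after it. Sequence was read from hg38, and 50-mers were counted on both strands of the placed chromosome sequences and of scaffolds outside them. Genes came from GENCODE 44 and ribosomal genes from RefSeq (GRCh38.p14). Named were the 12 protein-coding genes with most merged sites, the 5 densest of at least 20 kb with at least 3 sites, the 5 of other types, the 3 leading genes on each other acrocentric chromosome, genes over 200 kb without a site, and members of fixed lists. Genes around the sites shown are also named. Sequences shown were the 5 deepest sites, the widest peak, the clearest array per unit class (that of 7 to 30 bp is not reported here), the short-arm peaks with most and fewest 50-mers elsewhere (ties by depth, then width), and 3 ribosomal DNA sites chosen after their values were seen. The members, lists and rules were chosen with earlier results of these data known. The functions for arrays, merging, k-mers and intervals were tested on simulated data. Shares carry Clopper-Pearson limits and densities Poisson limits, and all were computed in Python 3.11.15 with numpy 2.4.6, pandas 2.3.3 and scipy 1.17.1. Alternatives were merged sites, other windows, reaches and limits, single arms, and arrays or groups of sites left out.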

Additional observations from a re-analysis of the deposited data

How the results depend on the processing

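Since the list carries no score, a stricter threshold could not be run, and peaks could not be paired by repeat, as none is named. Of 35 alternatives for 9 results, 8 stayed within the counting limits of the value reported. The density of chromosome 21 fell from 17.0 to 11.3 per Mb with merged sites, 11.9 with the long arm alone and 11.3 without arrays. Alternatives added after the data were seen gave 12.3 without pentamer-rich and ribosomal DNA sites and 13.2 without peaks of which 50% or more of the 50-mers lie elsewhere. The ratio of 1.35 to the other acrocentric chromosomes became 1.12 with merged sites, 1.24 per Mb of protein-coding gene, and fell under 1 with the long arms alone (0.925), without arrays (0.996) and, added later, without the pentamer-rich and ribosomal DNA sites (0.984). The short-arm share of 41.4% was 31.9% without arrays, and in added alternatives 19.8% without these groups and 26.4% without peaks with copies elsewhere. The share near the block was 13.6% within 500 kb, 21.4% within 2 Mb and 20.6% in merged sites. The densest 10% of windows, rounded up to whole windows, held 58.9% with windows of 500 kb and 31.5% with windows of 2 Mb. Arrays, 33.5% as reported, made up 49.8% at a self-match of 60%, 10.1% at 80% and 28.2% in merged sites. Protein-coding genes overlapped 37.8% of peaks and all annotated genes 57.0%. A neighbour within 1 kb was found for 72.6%, against 53.6% by overlap. Copies elsewhere, in 22.4% of peaks as reported, were found for 26.5% with 36-mers, 15.4% with 100-mers, 49.0% with any 50-mer and 19.1% of merged sites.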
